A study of Mus musculus with 3 samples.

Results

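The 4 Notch receptors, 4 of their ligands and the transcriptional targets Hey1 and Hes1 were followed in RNA-seq libraries of mouse aortic endothelial cells, cells of the inner lining of the aorta that were bought as a culture. The 10 genes were chosen by symbol, and 9 of the 18287 listed genes matched: Notch1, Notch2, Notch3, Notch4, Dll1, Dll4, Jag1, Jag2 and Hes1. Hey1 had no row in the tables used here and was not analysed here. There was 1 library in each of 3 groups. The control library came from cells labelled as control. A second library came from cells exposed for 30 min to 5 mU/mL of glucose oxidase, which releases hydrogen peroxide as it oxidizes glucose. The other treated library came from cells that received that exposure and ethyl-2-hydroxybenzylamine (Et2HOBA, 0.2 mM for 24 h), a scavenger of the reactive lipid aldehydes that form under oxidative stress. The labels give neither the order of the exposures nor the strain and age of the animals, nor whether the libraries came from separate cultures. A library with Et2HOBA alone was not analysed here.

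Notch receptors are single-pass membrane proteins that are switched on by ligands on a neighbouring cell. Ligand binding exposes the receptor to cleavage by an ADAM protease and then by gamma-secretase, and the freed intracellular part enters the nucleus, joins the DNA-binding protein Rbpj and a Mastermind coactivator, and turns on repressors of the Hes and Hey families. In blood vessels the pathway is known for arterial identity, for the choice between tip and stalk cells during sprouting, where Dll4 and Jag1 have opposing roles, and for signals from endothelial Jag1 to the mural cells around the vessel.

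The libraries held 35005089 to 40212212 reads over the listed genes. The counts of the control library and of the library given both agents were deposited. Those of the glucose oxidase library were back-calculated from the log2 differences in the deposited table, with constants fitted by closeness to whole reads. Over the 9 Notch genes the largest distance from a whole read was 2.85e-06. The library given glucose oxidase alone stood apart in its processed pseudogenes, of which 841 of 2110 were lower than in control by 1 log2 unit or more, against 52 in the library given both agents. All 10 endothelial markers were listed, with at least 1688 reads in every library. Their summed level was 9501 CPM (reads scaled to a library of 1000000) in control, 6093 after glucose oxidase and 5386 in the library given both agents. They did not move as a block. Cdh5 had 55360, 45034 and 63665 reads and was the only one with more reads than control, in the library given both agents. Vwf had 46607, 21567 and 12545 reads, and Esam 17876, 15726 and 16604. Of the leukocyte markers, Ptprc, Adgre1 and Cd3e were not listed and the 3 listed did not share a direction. Cd68 had 8215, 17067 and 27799 reads, Cd14 55, 136 and 272, and Lyz2 186, 76 and 86. Their summed level, most of it from Cd68, was 235, 494 and 700.2 CPM. Of the fibroblast markers, Pdgfra had 107, 1325 and 2821 reads, Col1a1 28, 30 and 23, and Col1a2, Dcn and Lum were not listed. The lymphatic endothelial marker Lyve1 had 11828, 22417 and 33226 reads and Flt4 7071, 6084 and 7796, while Prox1 and Pdpn were not listed. The part of these markers in the values below was not tested. In a bulk library fewer cells of a type and less RNA per cell cannot be told apart. Because each group had 1 library, replicate spread could not be estimated and conditions could not be tested against each other. The 95% intervals are exact binomial (Clopper-Pearson) intervals for ratios and shares and exact Poisson intervals for levels. They hold counting error alone and describe these libraries rather than the conditions.

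Upstream sequence is shown for the 3 genes with the widest differences among those of more than 100 reads in every library: Jag1 and Notch2, both higher in the treated libraries, and Dll4, lower in both. RefSeq promoter windows (build GRCm38.p6) matched 8 of the 10 genes. Each run below is in the direction of the gene and stops before the gene's first transcribed base in either RefSeq or GENCODE. Capitals mark CACGCG or its reverse complement CGCGTG, a site type known to bind Hes and Hey repressors.
Jag1, chr2:137116645-137116770, minus strand: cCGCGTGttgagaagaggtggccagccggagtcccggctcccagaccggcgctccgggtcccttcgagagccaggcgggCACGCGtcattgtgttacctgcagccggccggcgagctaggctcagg
Notch2, chr3:98013288-98013526, plus strand: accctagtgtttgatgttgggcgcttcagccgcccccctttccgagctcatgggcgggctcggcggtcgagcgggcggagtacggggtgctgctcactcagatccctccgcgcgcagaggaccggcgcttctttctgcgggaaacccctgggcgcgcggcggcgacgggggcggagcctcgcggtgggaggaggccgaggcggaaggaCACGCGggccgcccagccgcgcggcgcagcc
Dll4, chr2:119325534-119325783, plus strand: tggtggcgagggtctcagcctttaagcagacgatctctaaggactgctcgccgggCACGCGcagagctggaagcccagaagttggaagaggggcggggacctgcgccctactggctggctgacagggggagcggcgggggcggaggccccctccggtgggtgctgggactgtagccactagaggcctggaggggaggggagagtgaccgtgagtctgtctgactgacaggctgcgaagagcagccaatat

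In the full windows of 250 bases before the RefSeq start site, Jag1 held this motif 2 times, with first bases 249 and 171 bases upstream of the start. Notch2 held it 1 time, 42 bases upstream, and Dll4 1 time, 195 bases upstream. One of the 2 windows of Dll1 also held it, 68 bases upstream. The motif was found on either strand in 7.62% of all 32851 promoter windows of the same length. These windows differ in base composition from the rest: those of Jag1, Notch2 and Dll4 are 57.2%, 72.0% and 65.6% G and C, against a median of 52.4% over all windows. The Rbpj core TGGGAA was in none of the 9 windows of the 8 matched genes and in 21.6% of all windows, and its longer form GTGGGAA, which contains the core, was in none and in 5.42%. The E-box CACGTG, which is its own reverse complement, was in none and in 6.02%. Jag1 and Notch2, which were higher in both treated libraries, and Dll4, which was lower in both, each carried CACGCG. The windows of Notch1, Notch3, Notch4 and Jag2 did not hold it. Those of Notch1 and Jag2, and the Dll1 window without it, lie wholly inside the gene as GENCODE annotates it. For these windows the absence of a motif says nothing about the sequence before the outermost annotated start.

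Levels of different genes are compared as reads per kilobase of exon per 1000000 listed reads (RPKM), with exon lengths from the GENCODE M21 annotation. These lengths join the exons of all transcripts: 14232 bases for Notch1, 8061 for Notch4 and 5827 for Jag1. Their longest single transcripts have 9488, 6591 and 5612 bases. The order of genes and the shares per length depend on the length used, and levels on other lengths are not given here. With longest transcripts as lengths, the same reads would keep Notch4 above Jag1 after glucose oxidase. In control they would put Notch1 above Jag1 and Hes1 above Dll1. RPKM is scaled by total reads, unlike the ratios of normalized counts below. In control, Notch4, a receptor found mainly in endothelium, had the highest level of the 9 at 42.4 RPKM. Jag1 followed at 25.5, Notch1 at 23.1, Dll1 at 15.1 and Hes1 at 14.2. Jag2 had 7.40, Dll4 2.81, Notch2 1.63 and Notch3 0.0687. On the joined lengths every neighbouring pair in this order lay apart beyond its counting intervals except Dll1 and Hes1. Their intervals, 14.5 to 15.8 and 13.3 to 15.1, met, and those after glucose oxidase met too. Counting intervals leave out the choice of length. On the joined lengths the order changed at 2 places after glucose oxidase. Jag1, at 40.5 RPKM, moved above Notch4, at 38.1, and Notch2, at 3.28, moved above Dll4, at 1.25. With Et2HOBA added, Jag1 reached 88.4 RPKM against 29.2 for Notch4. On the joined lengths Hes1, at 12.2, then lay above Dll1, at 10.9, with intervals that no longer met.

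**Figure D1:**
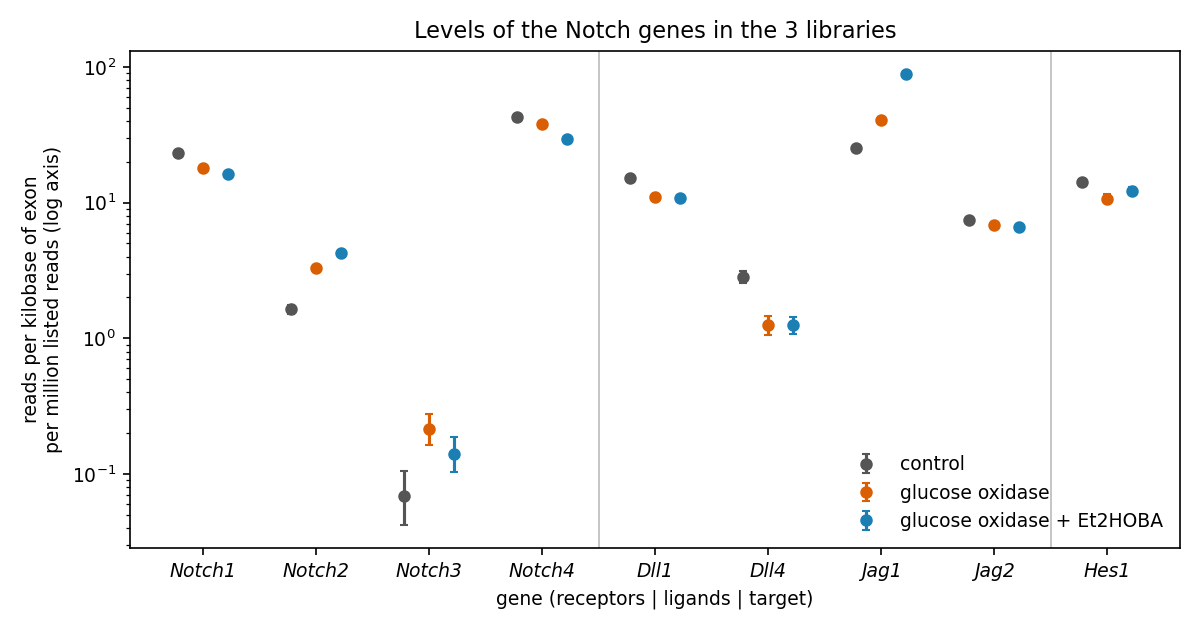
Level of each Notch gene in the 3 libraries, in RPKM on a log axis; points are single libraries and bars are exact 95% Poisson intervals. Jag1 goes from 25.5 in control to 88.4 with both agents, while Dll4 goes from 2.81 to 1.25.

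A gene was counted as past the limit where its log2 ratio of normalized count plus 10 was at least 1 in size, a scale that understates the difference of low genes. All 9 Notch genes are protein-coding, so the share of protein-coding genes past the limit is the nearer background. For glucose oxidase against control, 12.7% of all genes and 9.3% of protein-coding genes passed the limit (4.53% higher and 4.76% lower), and 3 of the 9 Notch genes did, with Notch2 and Notch3 higher and Dll4 lower. With Et2HOBA against control the limit was passed by 14.7% of all genes and 16.6% of protein-coding genes (7.33% upward and 9.3% downward), and 2 of the 9 did, Jag1 and Notch2, both higher. Between the treated libraries 8.55% of all genes and 3.32% of protein-coding genes passed (0.971% upward and 2.35% downward), and 1 of the 9 did, Jag1, higher with Et2HOBA. The median log2 ratio of the 9 genes was -0.10, -0.06 and 0.08 in these comparisons, against -0.01, -0.00015 and 0 for all genes and 0.04, 0.0011 and -0.02 for protein-coding genes. The first 2 comparisons share the control library, and the first and the last share the glucose oxidase library.

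Among the receptors, the abundant Notch1 and Notch4 were lower in both treated libraries and the scarcer Notch2 was higher. Notch1 (ENSMUSG00000026923.15, chromosome 2, 26457903 to 26516663), the receptor most studied in arterial endothelium, had 11850 reads in the control library, 8984 in the glucose oxidase library and 9335 in the library given both agents. Both treated libraries were below control. The normalized count was 0.810 of control after glucose oxidase (95% interval 0.788 to 0.833) and 0.783 with Et2HOBA (0.762 to 0.804), while the treated libraries differed from each other by little, at a ratio of 0.966 (0.938 to 0.994). Notch4 (ENSMUSG00000015468.14, chromosome 17, 34564268 to 34588503) had 12296, 10756 and 9459 reads in the same order. Its level was lowest with both agents. Against control the ratio was 0.935 after glucose oxidase (0.911 to 0.960) and 0.764 with Et2HOBA (0.744 to 0.785), and between the treated libraries it was 0.817 (0.795 to 0.840).

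Notch2 (ENSMUSG00000027878.11, chromosome 3, 98013527 to 98150361), a receptor of many tissues including smooth muscle, had 633 reads in the control library, 1239 in the glucose oxidase library and 1830 in the library given both agents. It was lowest in control and highest with both agents. The ratio to control was 2.09 after glucose oxidase (1.90 to 2.31) and 2.87 with Et2HOBA (2.62 to 3.15), and 1.37 between the treated libraries (1.28 to 1.48). In log2 ratio it ranked 543 of 13285 protein-coding genes from the highest after glucose oxidase and 470 with Et2HOBA. Its value after glucose oxidase, a log2 ratio of 1.05, lies close to the limit. It was 0.997 with total-count scaling and 0.88 in the authors' deposited table, both short of it.

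Notch3 (ENSMUSG00000038146.8, chromosome 17, 32120820 to 32166852), known mainly from smooth muscle cells and pericytes, was near the bottom of the measured range, with 20, 61 and 46 reads. Control was lowest, and the treated libraries could not be placed relative to each other, at a ratio of 0.701 with an interval of 0.467 to 1.05. Relative to control it was 3.26 after glucose oxidase (1.94 to 5.71) and 2.29 with Et2HOBA (1.32 to 4.08). Its log2 ratios were 1.32 and 0.89, and in the authors' deposited table the values were 0.49 and 0.50, both short of the limit. Mural markers were as scarce. Of the smooth muscle genes, Acta2 had 8, 18 and 13 reads, Tagln 9, 9 and 4, Des 8, 9 and 9, and Myh11 19, 35 and 73. They summed to 44, 71 and 99 reads, the differences coming mostly from Myh11, and Cnn1 and Myocd were not listed. The pericyte gene Pdgfrb had 21, 43 and 71 reads, Cspg4 had 2, 15 and 25, and Rgs5, Kcnj8 and Abcc9 were not listed. The part of these markers in the value of Notch3 was not tested.

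Counted per length, Notch4 made up 63.1% of receptor transcripts in control, Notch1 34.4% and Notch2 2.43%. After glucose oxidase the shares were 63.9%, 30.2% and 5.50%, and with Et2HOBA they were 58.5%, 32.7% and 8.47%. Notch3 stayed at or below 0.361% in every library. The summed level of the 4 receptors was 67.3 RPKM in control, 59.6 after glucose oxidase and 49.9 after both agents. These sums are scaled by total reads. On that scaling the median log2 ratio of all genes to control was -0.06 after glucose oxidase and -0.13 with both agents.

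Among the ligands, Jag1 was higher in both treated libraries, Dll4 and Dll1 were lower, and Jag2 was at about the control level. Jag1 (ENSMUSG00000027276.7, chromosome 2, 137081456 to 137116644), the Jagged ligand that endothelium presents to mural cells, had 5337 reads in the control library, 8265 in the glucose oxidase library and 20718 in the library given both agents. The 3 libraries were far apart, with the library given both agents highest. The ratio to control was 1.66 after glucose oxidase (1.60 to 1.71), short of the limit, and 3.86 with Et2HOBA (3.74 to 3.98). Between the treated libraries the ratio was 2.33 (2.27 to 2.39). In log2 ratio Jag1 ranked 1022 of 13285 protein-coding genes from the highest after glucose oxidase and 289 with Et2HOBA. It ranked 72 from the highest between the treated libraries, where 129 protein-coding genes passed the limit upward.

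Dll4 (ENSMUSG00000027314.6, chromosome 2, 119325784 to 119335962), the Delta ligand of arterial and tip cells, had 390 reads in the control library, 168 in the glucose oxidase library and 194 in the library given both agents. Control was highest, and the treated libraries did not differ beyond counting error, at a ratio of 1.07 (0.868 to 1.33). Its normalized count was 0.460 of control after glucose oxidase (0.382 to 0.553) and 0.494 with Et2HOBA (0.414 to 0.589). The log2 ratios, -1.08 and -0.98, lie on either side of the limit, so that Dll4 counted as past it in the first comparison only. In the authors' deposited table the values were -0.69 and -0.83.

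Dll1 (ENSMUSG00000014773.13, chromosome 17, 15367354 to 15376872), another Delta ligand of arterial endothelium, had 2295, 1616 and 1842 reads. Control was highest and the treated libraries lay close together. Its normalized count was 0.753 of control after glucose oxidase (0.706 to 0.803) and 0.797 with Et2HOBA (0.750 to 0.848). Between the treated libraries the interval, 0.990 to 1.13, included equal levels, and the direction turned with total-count scaling. Jag2 (ENSMUSG00000002799.6, chromosome 12, 112907819 to 112929776), the other Jagged ligand, had 1854, 1678 and 1867 reads. Its ratios to control, 0.968 (0.905 to 1.03) and 1.001 (0.938 to 1.07), could not be told from equal levels at this depth, and the direction of its log2 ratio with Et2HOBA depended on the scaling.

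**Figure D2:**
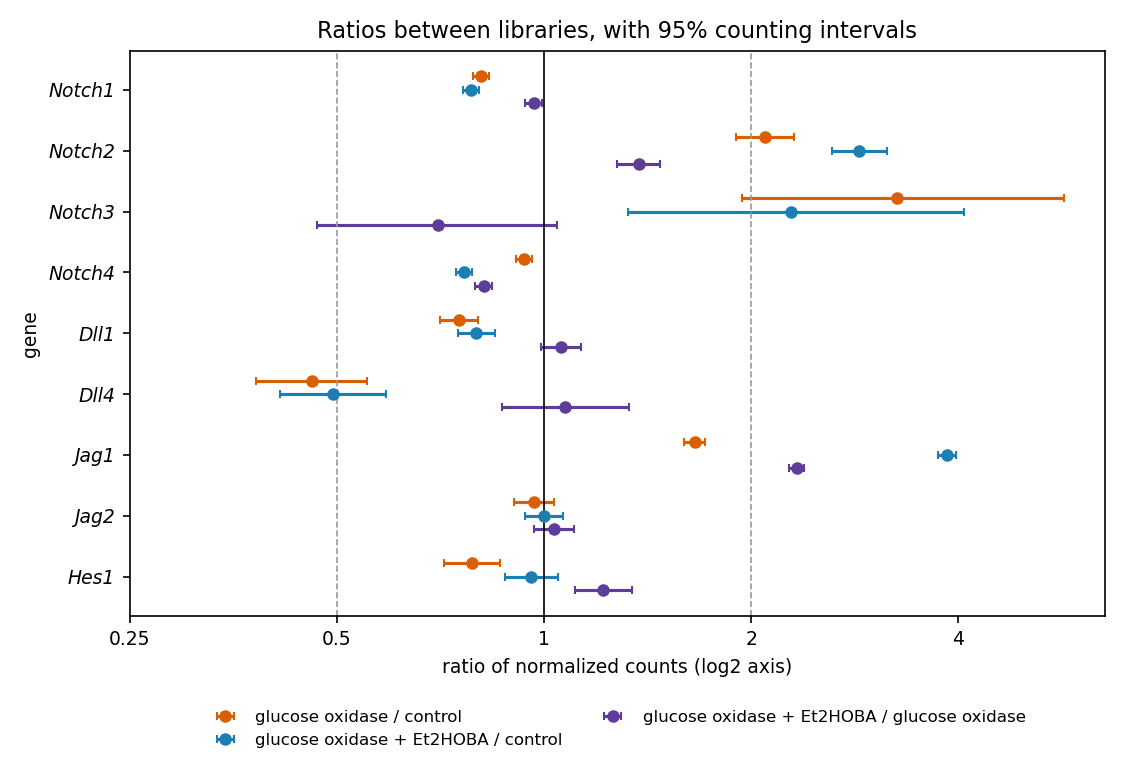
Ratio of normalized counts between libraries for each Notch gene, on a log2 axis, with exact 95% counting intervals as bars; dashed lines mark ratios of 0.5 and 2. Jag1 is at 3.86 with both agents against control, Dll4 at 0.460 and 0.494 against control, and the intervals of Jag2 span 1.

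Jag1 held a larger share of the ligand transcripts in the treated libraries. Within a library this share does not depend on the scaling between libraries. Jag1 held 54.0% of the 9876 ligand reads in control (53.1% to 55.03%), 70.5% of 11727 after glucose oxidase (69.6% to 71.3%) and 84.1% of 24621 with Et2HOBA (83.7% to 84.6%). Dll4 held 3.95% (3.57% to 4.35%), 1.43% (1.23% to 1.66%) and 0.788% (0.681% to 0.906%). Dll1 went from 23.2% to 13.8% and 7.48%, and Jag2 from 18.8% to 14.3% and 7.58%. Per length, the Jagged ligands together had 1.83 times the level of Dll1 and Dll4 in control, 3.89 times after glucose oxidase and 7.85 times with Et2HOBA. The level of Jag1 was 9.05 times that of Dll4 in control, 32.5 times after glucose oxidase and 70.6 times with Et2HOBA. The summed ligand level was 50.8 RPKM in control, below that of the receptors, 59.6 after glucose oxidase and 107 with Et2HOBA, above that of the receptors.

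**Figure D3:**
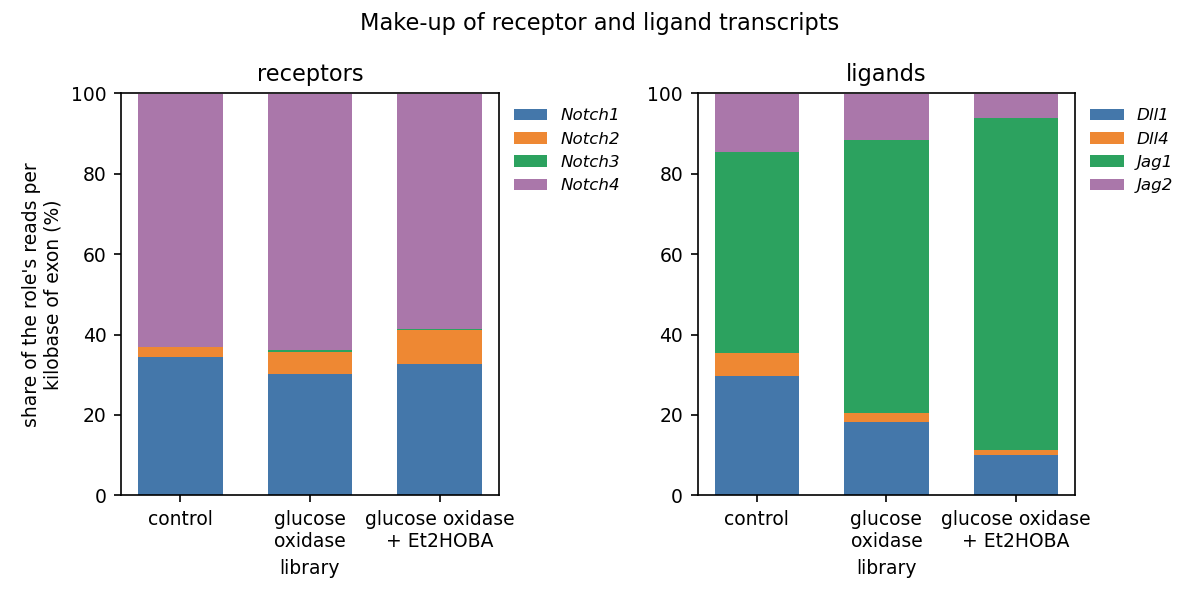
Share of each gene in the reads per kilobase of exon of the 4 receptors (left) and the 4 ligands (right), in percent, for the 3 libraries. Jag1 takes 50.1% of ligand transcripts in control, 68.0% after glucose oxidase and 82.5% with both agents, while Notch4 stays the most abundant receptor at 58.5% to 63.9%.

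The listed target, Hes1 (ENSMUSG00000022528.8, chromosome 16, 30064384 to 30067796), a basic helix-loop-helix repressor, had 1038 reads in the control library, 764 in the glucose oxidase library and 1002 in the library given both agents. The library given glucose oxidase alone was lowest and the other two lay close together. The ratio to control was 0.787 after glucose oxidase (0.716 to 0.865) and 0.959 with Et2HOBA, with an interval of 0.879 to 1.05 that included equal levels. Between the treated libraries it was 1.22 (1.11 to 1.34). None of its log2 ratios (-0.34, -0.06 and 0.28) reached the limit.

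Other genes of the pathway were taken from a list of 50 by role, of which 42 were listed. In the comparison of glucose oxidase with control 2 of the 42 passed the limit, with Unc5b higher and Dtx4 lower, against 12.7% of all genes and 9.3% of protein-coding genes. With Et2HOBA against control 9 of 42 passed, 4 higher and 5 lower, against 14.7% and 16.6%. Between the treated libraries 2 of 42 passed, both lower with Et2HOBA, against 8.55% and 3.32%. The medians of the 42 were -0.07, -0.08 and 0.03.

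All 5 glycosyltransferases that modify the receptors' extracellular repeats were below control in both treated libraries, which share that control. The limit was passed by 1 of them, with Et2HOBA against control, where 16.6% of protein-coding genes passed it. Of all 13285 protein-coding genes, 6114 were below control after glucose oxidase and 6630 with Et2HOBA. Lfng, a Fringe enzyme that tunes the response of Notch to Delta and Jagged ligands, had 2249 reads in the control library, 1181 in the glucose oxidase library and 641 in the library given both agents. It was lower in each library in turn, at 0.561 of control (0.523 to 0.603) and 0.283 (0.259 to 0.309). The relatives Mfng and Rfng had ratios of 0.819 and 0.718 with Et2HOBA, Pofut1 of 0.697 and Poglut1 of 0.814. None of the 10 processing proteases passed the limit in any comparison, against 9.3%, 16.6% and 3.32% of protein-coding genes. Furin, which cuts the receptors before they reach the surface, had ratios of 0.636 and 0.559 to control, and Adam10, which makes the first activating cut, 0.855 and 0.945.

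In the nuclear complex 1 of 9 genes passed the limit, in the comparison of both agents with control, against 16.6% of protein-coding genes. Rbpj, the DNA-binding partner of cleaved Notch, had 1764 reads in the control library, 2822 in the glucose oxidase library and 4461 in the library given both agents. It was highest with both agents, at 1.71 times control (1.61 to 1.82) after glucose oxidase and 2.51 times (2.38 to 2.66) with Et2HOBA. The coactivator Maml1 had ratios of 1.29 and 1.69, while Maml2, Snw1, Crebbp and Ep300 lay between 0.914 and 1.09 in both. Maml3, with 225, 359 and 258 reads, was highest after glucose oxidase alone. Its ratios to control were 1.71 (1.44 to 2.02) and, with Et2HOBA, 1.14 (0.949 to 1.37).

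Among the 12 genes of trafficking and turnover, 1 passed the limit after glucose oxidase (Dtx4), 4 with Et2HOBA against control and 2 between the treated libraries. The shares of protein-coding genes past the limit were 9.3%, 16.6% and 3.32%. The ubiquitin ligase Mib2, which acts on Notch ligands, had 980, 1697 and 2177 reads, or 1.85 and 2.21 times control. Neurl1b, another ligase of ligand-bearing cells, was scarce at 106, 58 and 16 reads, at 0.585 of control (0.417 to 0.813) and 0.150 (0.0829 to 0.255). Neurl3, of the same family, had 1254, 758 and 377 reads, and Dtx4, a Deltex ligase, 1828, 795 and 549. The 3 genes were lowest with both agents, and between the treated libraries Neurl1b and Neurl3 had log2 ratios of -1.46 and -1.09.

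Of 11 other genes of the Hes, Hey and target group 6 were listed. The limit was passed by 1 of them after glucose oxidase (Unc5b) and by 3 with Et2HOBA against control. Of protein-coding genes, 9.3% and 16.6% passed it in these comparisons. Unc5b, a netrin receptor of endothelial cells, had 2329, 4568 and 5910 reads, 2.10 and 2.52 times control. Hes7, a repressor known from the segmentation clock, was scarce at 36, 53 and 88 reads. Hes6, a Hes relative that opposes Hes1, had 1989, 1289 and 992 reads, and its log2 ratio of -1.01 with Et2HOBA is just past the limit. Nrarp, a feedback inhibitor that Notch induces, had ratios of 1.29 (1.15 to 1.45) and 1.39 (1.24 to 1.55) to control. The arterial ligand Efnb2 had ratios of 0.690 and 0.721. Hey2 had 95, 111 and 82 reads, and its intervals against control, 0.941 to 1.66 and 0.630 to 1.17, included equal levels. The targets had no common direction in these libraries.

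**Figure D4:**
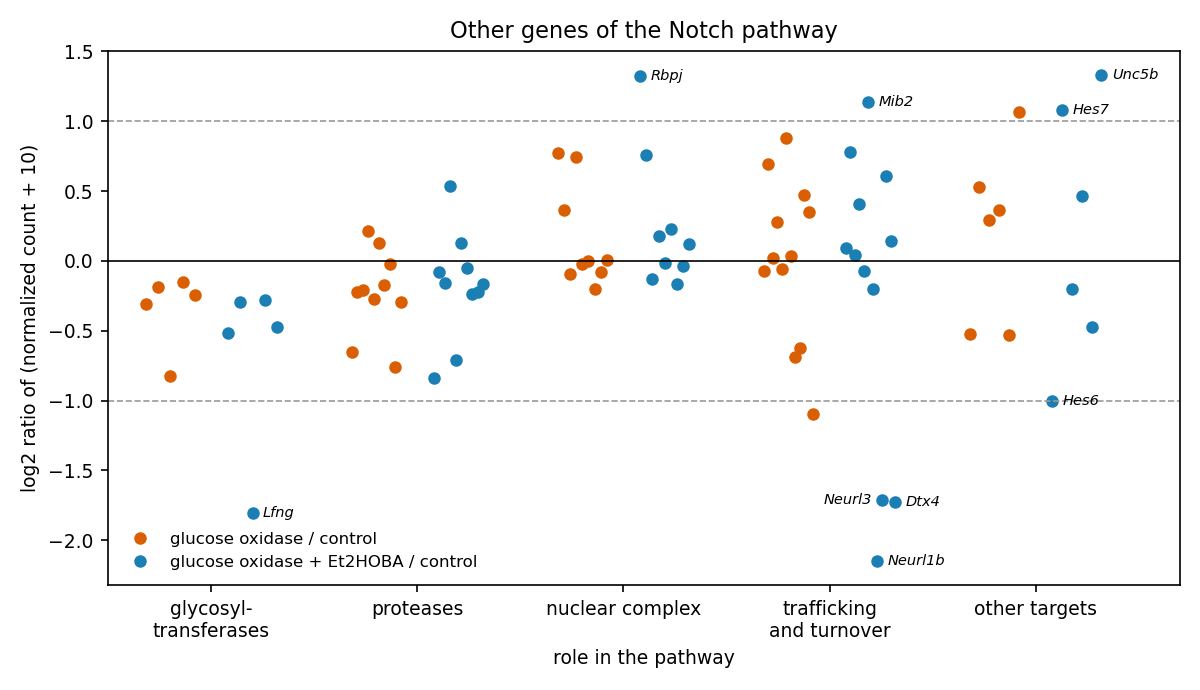
Log2 ratio of normalized count plus 10 against control for the 42 listed pathway genes by role, after glucose oxidase (orange) and with both agents (blue); 1 point is 1 gene and dashed lines mark the limit of 1. Genes past the limit with both agents are named: Lfng, Neurl1b, Neurl3, Dtx4 and Hes6 lie below it and Rbpj, Mib2, Hes7 and Unc5b above it.

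Read assignment touches several of these genes. Jag1, Jag2, Notch4 and Hes1 share no stretch of 50 bases of their longest transcript with another annotated gene. For Notch2, Dll4, Notch3, Notch1 and Dll1 3.86%, 4.46%, 5.01%, 13.7% and 15.0% of such stretches recur in overlapping or neighbouring noncoding genes. Stretches were matched on either strand. The gene that overlaps exons of Notch2 is on the same strand, and those that overlap exons of the others are on the opposite strand. How far the assignment of such reads could change these counts depends on the strand setting, which is not given. Gm14207, on the strand opposite Dll4, had 39, 39 and 19 reads, and 0610009E02Rik, opposite Notch1, had 30, 26 and 21. The other overlapping noncoding genes were not listed. Notch1, Dll4 and Jag1 lie on chromosome 2 and Notch3, Notch4 and Dll1 on chromosome 17, and neither group moved in 1 direction.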

How the data were processed

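Stranded libraries were made from polyadenylated RNA, per the labels' protocols. STAR, featureCounts and the build mm10 are named in the submitters' processing notes; versions, annotation and strand setting are not given in the sources used here. The authors deposited raw read counts and log2 normalized values of 2 libraries with their log2 difference for 18287 genes, a headerless table of log2 differences of glucose oxidase against control for 18287 genes, and log2 differences between the treated libraries for 7 genes, none of them a Notch gene. These log2 values fit a transformation of square-rooted counts by the inverse hyperbolic sine. Its constant for each library was fitted by closeness to whole reads in these same genes. Undoing it with the known reads of the control library returned whole reads for the glucose oxidase library (tolerance 0.01) in 100% of the 18275 genes with a matching symbol, and in 3.31% when the control reads were each raised by 1; another 12 genes were assigned by whole reads. The fitted constants were not refitted for the raised control reads. The procedure was also run on simulated data made with the same transformation, which cannot show that the authors used it.

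Reads were normalized with median-of-ratios size factors (1.03 for control, 0.965 for glucose oxidase, 1.04 with Et2HOBA). Log2 ratios used a pseudocount of 10. The limit of 1 log2 unit stands in for a test, since spread cannot be estimated from single libraries. Total reads were 35969965, 35005089 and 40212212. Of the listed gene IDs, 17878 had the same version and position in GENCODE M21. The genes, lists, limit and motifs were chosen with earlier results of these data known. All Notch genes and each other pathway gene past the limit are named, with others as examples chosen after their values were seen; the genes whose sequence is shown were also chosen after their values were seen. Alternatives were a pseudocount of 1, TMM factors (edgeR 4.0.16, R 4.3.3), total-count scaling, the deposited scale, limits of 0.5 and 2, a filter at a mean normalized count of 10, and protein-coding genes only. Python 3.11.15 with scipy 1.17.1 was used.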

Additional observations from a re-analysis of the deposited data

How the results depend on the processing

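No paired analysis was possible because each group has 1 library, and for the same reason no library could be left out. Of 27 log2 ratios of the 9 Notch genes, 1 changed sign under TMM factors and also on the deposited scale (Jag2 with Et2HOBA against control) and 3 under total-count scaling (Jag2 with Et2HOBA against control and between the treated libraries, and Dll1 between the treated libraries). Total-count scaling put the median of all genes at -0.06, -0.13 and -0.08. The largest move was 0.83, for Notch3 after glucose oxidase on the deposited scale, which shrinks low counts.

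The number of Notch genes past the limit was 0 at a limit of 2 in all 3 comparisons. After glucose oxidase it was 0, in place of 3, on the deposited scale. With Et2HOBA against control it was 4, in place of 2, with a pseudocount of 1, where Dll4 (-1.01) and Notch3 (1.15) joined, and at a limit of 0.5. Under total-count scaling Dll4 passed there too (-1.13). For the other pathway genes after glucose oxidase the number was 1 on the deposited scale, 14 at a limit of 0.5 and 0 at 2. With Et2HOBA against control it was 16 at 0.5 and 1 at 2, and between the treated libraries 8 at 0.5, 0 at 2 and 0 on the deposited scale.

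For all genes after glucose oxidase the number was 4243 with a pseudocount of 1, 734 on the deposited scale, 6175 and 526 at limits of 0.5 and 2, and 1235 for protein-coding genes (9.3%), in place of 2317. With Et2HOBA against control it was 4494, 1768, 7332 and 695 in that order, in place of 2688. Between the treated libraries it was 3311, 43, 4670 and 391, and 441 for protein-coding genes (3.32%), in place of 1563, with 74.8% and 29.3% higher in the full and the protein-coding set. Of the 1169 genes past the limit upward between the treated libraries, 959 were processed pseudogenes, which the protein-coding set leaves out. Of the 394 downward, 1 was. The cause of these moves was not tested, beyond the fewer genes or other limit that these settings use. With 20 reads in control, Notch3 had the widest counting intervals of the 9 Notch genes.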

Other observations

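The protein-coding genes nearest to each Notch gene in the 2 log2 ratios against control were looked up among 10597 genes with a mean normalized count of 100 or more. With 3 libraries this is a description of the libraries only. Jag1 had no gene within a distance of 0.1; its nearest were Tnc, a matrix glycoprotein with 291 reads in control, 442 with the oxidant and 1237 with both agents, at a distance of 0.11, and Stc1, a secreted glycoprotein with 619, 1047 and 2472 reads, at 0.12. Notch2 had 22 genes within 0.1, the nearest being Got1, the cytosolic aspartate aminotransferase, with 3896, 7581 and 11402 reads, and S100a8, a calcium-binding protein, with 565, 1128 and 1603. Dll4 had 8, led by Gas2l3 with 892, 395 and 447 reads. Hes1 had 48, led by Foxn2 with 1508, 1106 and 1460 reads and Pdia6 with 6702, 4996 and 6503. Jag2, close to 0 in both, had 698.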
